A study of Mus musculus with 20 samples.

Results

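Whether irradiation acted on cultured mouse colon fibroblasts in the same way in 2 organoid-conditioned media was tested gene by gene. The quantity was the difference of irradiation effects: the log2 fold change between irradiated APTKA medium and plain APTKA medium, minus the log2 fold change between irradiated APTK medium and plain APTK medium. A positive difference means that a gene was moved further up, or less far down, by irradiation in APTKA medium than in APTK medium. It drew on 16 of the 20 libraries of polyadenylated RNA, 4 in each of these 4 groups, chosen by the group strings in the names of the count files. Every gene that passed an expression filter entered (14820 of 47729 listed). The remaining 4 libraries, of untreated wild-type fibroblasts, entered the same fit, where they shared in the expression filter and in the estimate of the spread, and are plotted for reference.

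All cells came from strain C57BL6/J, and their medium was Advanced DMEM F12 with 10% FBS. Those of the 4 groups were stimulated for 24 h with medium conditioned by organoids named APTK or APTKA, names that the labels do not expand. The irradiated arm is labelled with 5 fractions of 2 Gy. The labels do not say whether organoids or fibroblasts were irradiated, and no group here was irradiated without organoid medium. Nothing in them says that the 4 libraries of a group (I to IV) came from separate cultures or animals. P-values therefore rest on library-to-library variation alone, some or all of which could be technical.

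Ionising radiation breaks DNA, and a damaged cell typically switches on the p53 programme, stops its cycle and can release inflammatory and growth-promoting factors. Medium conditioned by tumour organoids carries cytokines, growth factors and metabolites that act on fibroblasts through receptors, and many of these receptors signal through the ERK arm of the MAPK pathway. ERK induces its own inhibitors, such as the Sprouty proteins and the phosphatase DUSP6, so their transcripts are commonly read as a gauge of ERK output. A second axis is the integrated stress response, in which the factor ATF4 raises amino acid transporters and synthesis enzymes when amino acids run short or the endoplasmic reticulum is strained.

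The 16 libraries held 17.3 to 31.6 M counts. Fibroblast markers were high throughout, with Col1a1 at 7290 to 12800 and Vim at 1900 to 3330 CPM (the count scaled to a fixed library size, here of unscaled totals and elsewhere of TMM-scaled totals, TMM being a correction for composition). Epcam (epithelium) reached at most 0.112 CPM, Ptprc (leukocytes) at most 0.19 CPM, Cd3e (T cells) was at 0 in 16 libraries and Cdh5 (endothelium) at 0 in 15, while Pecam1 (endothelium) lay at 0.146 to 0.811 CPM. Per library, the sum of 9 endothelial markers came to 12.5 to 18.2 CPM and that of 9 pericyte and smooth muscle markers, which cultured fibroblasts can share, to 1240 to 1710 CPM. For 10 macrophage and monocyte markers the sum was 8.56 to 11.9 CPM. For 8 glia and neuron markers it was 103 to 135 CPM in the APTKA groups and 34.4 to 61 CPM in the APTK groups. The irradiated APTK libraries differed from each other more than those of any other conditioned group, with a chi-square per degree of freedom of 17.1 to 88.4 between pairs, against 4.8 to 14.6. The lowest value was that of I with IV, followed by II with III at 32.6. II with IV, I with II, III with IV and I with III gave 65.7, 70.9, 75.7 and 88.4. By this measure I to III were not alike. Irradiated APTK II had the lowest total of all, 17.3 M counts, and III the highest of its group, 29.2 M. The mitochondrial share in I to IV was 1.21, 1.23, 0.534 and 1.01%, against 0.765 to 0.922% with plain APTK medium. On the second principal component (5.7% of the variance) irradiated APTK II lay at -42.2 and irradiated APTK IV at 12.6, while plain APTK libraries lay at 6.88 to 10.2. Irradiated APTK IV also stood with the plain APTK libraries for several genes whose other irradiated libraries were high (Spp1, Mmp10, Gfra1, described at the end). The count of calls and the calls that change are therefore given with and without it. What set these libraries apart was not tested.

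Irradiation acted differently in the 2 media on 27 of 14820 genes, 0.182% of those tested. The difference was positive for 18 genes (0.121%) and negative for 9 (0.0607%). Negatively called were ERK feedback genes (Spry1, Spry2, Dusp6), the p53-linked kinase gene Plk3, the BMP target Id1, the gap junction gene Gja1, the cytokine gene Lif, the death receptor gene Tnfrsf21 and the survival gene Bcl2. Among the positive ones were amino acid supply and stress genes (Sesn2, Slc1a4, Slc7a11, Slc38a2), a sterol enzyme gene (Sqle), a glycolytic enzyme gene (Pfkp) and fibroblast genes (Pdgfrb, Smoc2, Lrrc17). In these bulk libraries, fewer cells of a type or state and less RNA of a gene per cell cannot be told apart. The absolute log2 values ran from 0.34 to 1.81 with a median of 0.70, and 4 of the 27 reached 2-fold. Adjusted p-values lay between 0.00931 and 0.0497. Without adjustment, 1337 genes (9.02%) had a p below 0.05, and the median of all 14820 differences was -0.000931. Of these, 7366 were positive and 7454 negative.

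For 26 of the 27 called genes the 2 irradiation effects had opposite signs, which held for 6411 of all genes tested (43.3%). A large difference favours opposite signs, so the first count is a description. By its own test, irradiation changed 108 genes in APTKA medium (0.729%, 67 higher, 0.452%, and 41 lower, 0.277%, or 47 and 47 with upper quartile scaling) and 205 in APTK medium (1.38%, 81 higher, 0.547%, and 124 lower, 0.837%). Among the 27, 7 rose in APTKA medium (Aldh1a3, Ikbkg, Pdgfrb, Pdzrn3, Slc38a2, Slc7a11, Smoc2) and 3 fell there (Bcl2, Spry1, Spry2), none of them called in APTK medium. Another 5 rose in APTK medium (Dusp6, Gja1, Id1, Plk3, Tnfrsf21) and 10 fell there (Adra1b, Ccdc78, Gpr35, Nfil3, Pfkp, Sesn2, Slc1a4, Sox11, Sqle and the predicted gene 5930403N24Rik), none called in APTKA medium. Lif and Lrrc17 passed in neither medium alone. The 4 irradiated and the 4 plain libraries did not overlap for 17 of the 27 genes in APTKA medium and for 17 in APTK medium (8 in both), against 1560 (10.5%) and 843 (5.69%) of all genes. The 27 were chosen by a test on these same libraries, which favours separated groups, so these counts are a description as well. Across the 14820 genes the 2 effects had a Pearson r of 0.142 and a Spearman rho of 0.156, a description over genes, which are not independent.

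**Figure D1:**
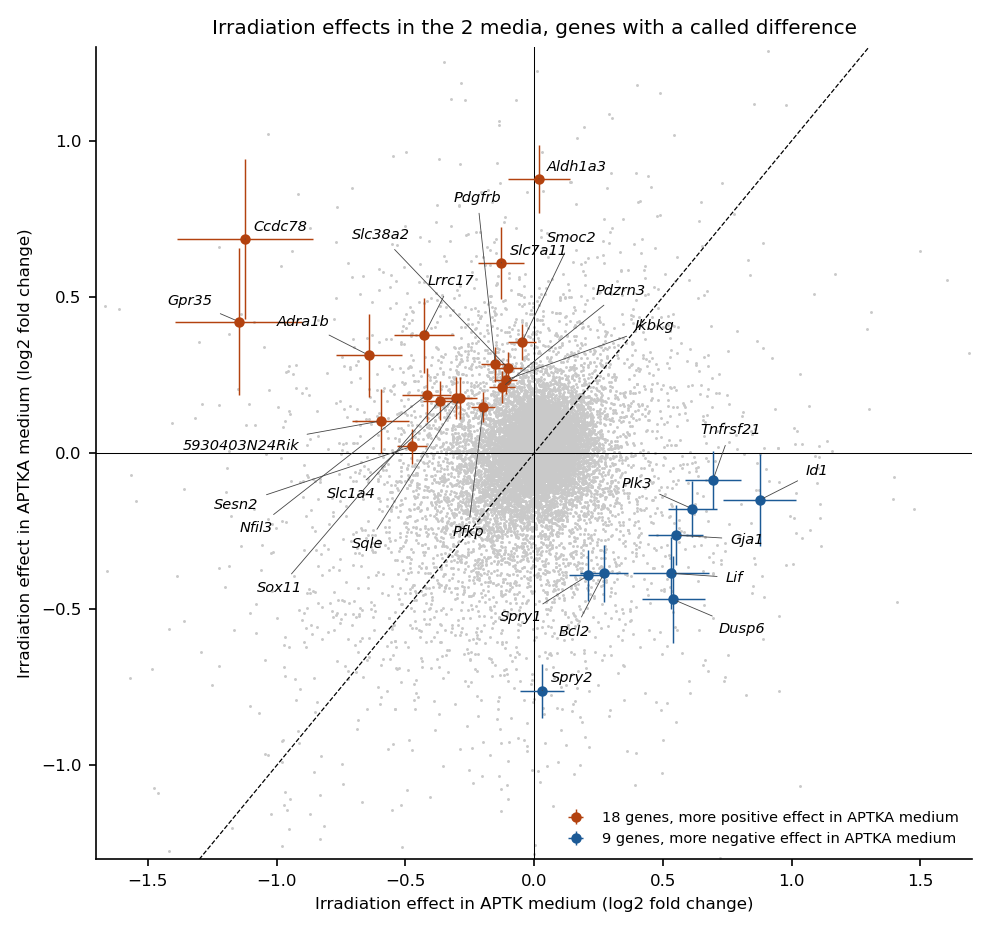
Irradiation effect in APTK medium (x axis) against that in APTKA medium (y axis), both as log2 fold changes, for genes tested (grey) and the 27 called genes (coloured, bars are SE), with 49 genes outside the plotted range. The called genes lie away from the dashed line of equal effects, 18 above it and 9 below, and 26 of them have effects of opposite sign.

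ERK feedback genes made up 3 of the 9 negative calls (Spry2, Spry1 and Dusp6). Spry2 (ENSMUSG00000022114, chromosome 14, 105891947 to 105896819, minus strand), which encodes a Sprouty inhibitor of receptor tyrosine kinase signalling, lay at 99.2, 103, 109 and 102 CPM in the libraries I to IV of APTKA medium and at 51.9, 70.6, 59.7 and 61.4 CPM with irradiated APTKA medium. With plain APTK medium it lay at 126, 115, 141 and 121 CPM, and with irradiated APTK medium at 114, 148, 138 and 114 CPM. The APTKA groups did not overlap, while the APTK groups did. Spry2 fell by 0.76 ± 0.0865 SE on the log2 scale in APTKA medium (adjusted p = 6.26e-05), its effect in APTK medium was 0.03 ± 0.085 SE (adjusted p = 0.913), and the difference was -0.79 ± 0.121 SE (adjusted p = 0.00931).

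Its relative Spry1 (ENSMUSG00000037211, chromosome 3, 37639947 to 37644598, plus strand) went from 22.4, 27.2, 26.7 and 25 CPM with APTKA medium to 18.1, 16.8, 20.01 and 22.4 CPM with the irradiated one. In APTK medium it lay at 75, 78.2, 87 and 85.5 CPM and, irradiated, at 87.8, 95.6, 100.1 and 92.7 CPM. Neither pair of groups overlapped, and they were ordered in opposite directions. The fall in APTKA medium was called (-0.39 ± 0.0821 SE, adjusted p = 0.0189), the effect in APTK medium was not (0.21 ± 0.0738 SE, adjusted p = 0.156), and the difference was -0.60 ± 0.11 SE (adjusted p = 0.0184). Spry1 shares sequence with a gene on the opposite strand, Gm42922.

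Dusp6 (ENSMUSG00000019960, chromosome 10, 99263231 to 99267489, plus strand), the phosphatase that switches off ERK, moved in the other medium. It lay at 29.8, 29.8, 30.5 and 30.7 CPM with APTK medium and at 36.5, 62.5, 39.9 and 37.4 CPM with irradiated APTK medium, where library II stood far above the other 3. With APTKA medium it lay at 11.7, 15.1, 12.5 and 13.5 CPM and, irradiated, at 8.65, 9.22, 9.39 and 11 CPM. Both pairs of groups separated, upwards in APTK medium and downwards in APTKA medium. The rise in APTK medium passed the test (0.54 ± 0.122 SE, adjusted p = 0.0303), the APTKA effect did not (-0.47 ± 0.139 SE, adjusted p = 0.126), and the difference was -1.01 ± 0.185 SE (adjusted p = 0.0227). Without irradiated APTK IV it was -1.08, and without II and IV together -0.79, both past the threshold. The call was lost in 9 of the 25 alternatives, the 16 libraries alone among them, with an adjusted p of at most 0.0747.

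The list of 24 immediate early and MAPK feedback genes had 3 called members, all negative (Spry1, Spry2, Dusp6), against 0.0607% of all genes. Negative differences numbered 21 of 24, against 7454 of all 14820. Its median difference was -0.408, against -0.000931 over all genes, and stayed between -0.508 and -0.278 under the 25 alternative settings. The median effect was -0.138 in APTKA medium and 0.256 in APTK medium. Several members with large negative values did not pass. Fos, an AP-1 subunit induced by ERK, lay at 5.57, 6.16, 4.94 and 4.16 CPM with APTK and 13.4, 12.6, 7.72 and 9.76 CPM with irradiated APTK medium, and its difference was -1.31 ± 0.332 SE (adjusted p = 0.127). Etv4, a transcription factor downstream of ERK, had a difference of -0.81 ± 0.211 SE (adjusted p = 0.151) and Spry4, another Sprouty gene, -0.74 ± 0.201 SE (adjusted p = 0.15). Fosl2, a further AP-1 subunit, was on the other side at 0.46 ± 0.135 SE (adjusted p = 0.204).

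**Figure D2:**
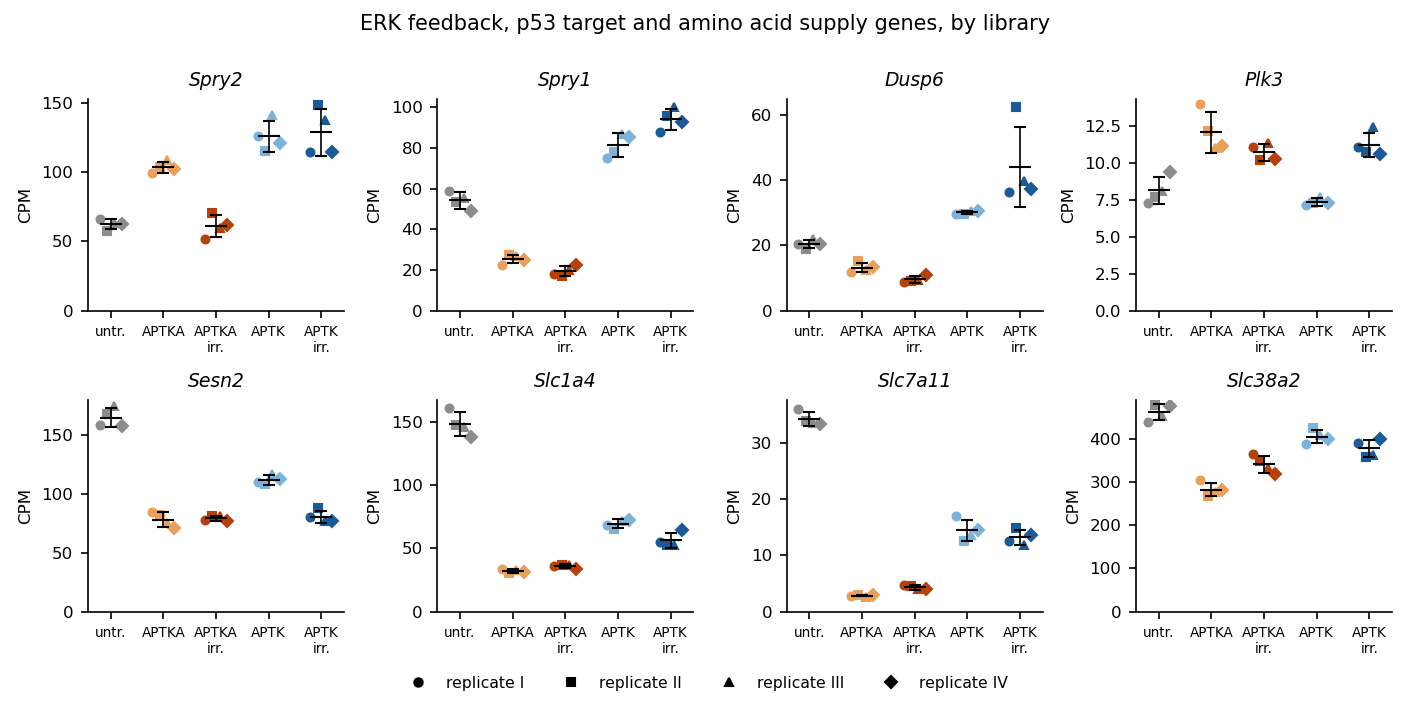
CPM of 8 genes with a called difference in each library of the 5 groups (symbols mark replicates I to IV, bars are mean ± SD, n = 4, y axes start at 0, untreated libraries for reference). Spry2 is separated between the APTKA groups and overlaps between the APTK groups, Plk3 and Sesn2 show the reverse, and Dusp6 of irradiated APTK II lies at 62.5 CPM above the other 3 libraries.

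Genes of the p53 programme did not share a direction. Plk3 (ENSMUSG00000028680, chromosome 4, 117128655 to 117133963, minus strand), a Polo-like kinase gene responsive to stress, lay at 7.14, 7.27, 7.72 and 7.3 CPM with APTK medium and at 11.1, 10.8, 12.4 and 10.6 CPM with irradiated APTK medium, all 4 above all 4. With APTKA medium it lay at 14, 12.2, 11.1 and 11.1 CPM, and irradiated at 11.1, 10.2, 11.3 and 10.3 CPM, with overlap. It rose in APTK medium (0.61 ± 0.095 SE, adjusted p = 0.00158), the APTKA effect was -0.18 ± 0.0895 SE (adjusted p = 0.423), and the difference was -0.79 ± 0.13 SE (adjusted p = 0.00931). Plk3 overlaps Tctex1d4 on the opposite strand, and the strand setting of the counting is not given in the sources used here.

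Sesn2 (ENSMUSG00000028893, chromosome 4, 132492032 to 132510501, minus strand), a sestrin that restrains mTORC1 when leucine is low and is also induced by p53 and ATF4, went the opposite way. Its levels were 109.8, 108, 117 and 112 CPM with APTK medium and 80.6, 87.5, 76.6 and 77 CPM with irradiated APTK medium, which did not overlap. With APTKA medium they were 84.2, 81.9, 75.1 and 70.7 CPM, and with irradiated APTKA medium 77.7, 81.2, 80.8 and 77 CPM, which did. Sesn2 fell in APTK medium (-0.47 ± 0.0567 SE, adjusted p = 4.42e-05) to levels that overlap both APTKA groups, and the difference was 0.50 ± 0.080 SE (adjusted p = 0.00931).

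The other 27 tested p53 targets passed no test of the difference. The median over the 29 was -0.0473, and 18 of 29 values were negative. With 1 library left out that median ran from -0.0804 (without irradiated APTK I) to -0.000259 (without irradiated APTK II). Cdkn1a, the p53-induced brake of the cell cycle, averaged 273 ± 11.3 CPM with APTKA and 275 ± 14.6 CPM with irradiated APTKA medium (SD, n = 4 here and below), and 130 ± 11.3 and 126 ± 9.97 CPM in the APTK groups (plain, then irradiated, here and below). Its difference was 0.06 ± 0.0972 SE (adjusted p = 0.913). Mdm2, the ubiquitin ligase that p53 induces against itself, averaged 515 ± 44.9 and 466 ± 14.6 CPM in the APTKA groups and 201 ± 6.72 and 201 ± 20.4 CPM in the APTK groups, with a difference of -0.15 ± 0.0971 SE (adjusted p = 0.714). Irradiation called neither gene in either medium. Of 27 tested genes of DNA damage signalling and repair none passed with edgeR or with DESeq2. Their differences were negative for 23, against 7454 of all 14820, and the median was -0.108. An unadjusted p below 0.05 was reached by 4, all negative (4.3% of all genes in that direction). Without irradiated APTK IV the checkpoint kinase gene Chek2 was called (-0.37, adjusted p = 0.049).

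Amino acid supply and stress genes held the most positive calls of the 29 lists. Of 28 members 4 were called, all positive (Sesn2, Slc1a4, Slc7a11, Slc38a2), against 0.121% of all genes. Slc7a11 and Slc38a2 were not called in the fit without the untreated group. Of the 28 differences 25 were positive, against 7366 of all 14820, and the median was 0.308. Without adjustment 18 members had a p below 0.05 in the positive direction, against 699 of all genes (4.72%). Under the 25 alternatives the median stayed between 0.251 and 0.337. The median effect was 0.0938 in APTKA medium and -0.13 in APTK medium.

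Slc7a11 (ENSMUSG00000027737, chromosome 3, 49892526 to 50443614, minus strand) encodes the cystine importer that feeds glutathione synthesis. It lay at 2.83, 2.91, 2.65 and 2.98 CPM with APTKA medium and at 4.79, 4.61, 3.96 and 3.98 CPM with irradiated APTKA medium, without overlap. In APTK medium it lay higher, at 16.9, 12.6, 13.7 and 14.4 CPM, and irradiated at 12.5, 14.9, 11.8 and 13.6 CPM, with overlap. It rose in APTKA medium (0.61 ± 0.116 SE, adjusted p = 0.00825), and the difference was 0.74 ± 0.146 SE (adjusted p = 0.0249). The glutamine carrier gene Slc38a2 (ENSMUSG00000022462, chromosome 15, 96687392 to 96699730, minus strand) followed the same pattern, at 304, 269, 277 and 281 CPM with APTKA and 365, 348, 333 and 318 CPM with irradiated APTKA medium. In the APTK groups Slc38a2 lay at 388, 424, 409.7 and 399.8 CPM and, irradiated, at 389.5, 359, 364 and 400.5 CPM, which overlapped. Its difference was 0.37 ± 0.0767 SE (adjusted p = 0.0322).

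Slc1a4 (ENSMUSG00000020142, chromosome 11, 20302180 to 20332713, minus strand), a carrier of neutral amino acids such as alanine and serine, instead fell in APTK medium. It lay at 68.7, 65.1, 71.5 and 72.5 CPM with plain and 54.8, 52.8, 52.5 and 64.5 CPM with irradiated APTK medium, library IV being closest to the plain ones. With APTKA medium it lay at 33.4, 30.1, 32.5 and 30.9 CPM and, irradiated, at 36, 37.1, 37.2 and 33.3 CPM. The fall was -0.31 ± 0.0637 SE (adjusted p = 0.0174), the APTKA effect 0.18 ± 0.0661 SE (adjusted p = 0.24) and the difference 0.48 ± 0.0918 SE (adjusted p = 0.0227).

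The transcription factor gene Atf4 itself did not pass, with a difference of 0.23 ± 0.0748 SE (adjusted p = 0.279), nor did Ddit3 (CHOP), with 0.45 ± 0.107 SE (adjusted p = 0.0943), or Asns (asparagine synthetase), with 0.06 ± 0.0925 SE (adjusted p = 0.898). Chac1, which degrades glutathione, and Trib3, a pseudokinase induced by ATF4, were among the largest falls with irradiation in APTK medium. Trib3 lay at 105, 83.8, 90.9 and 93.8 CPM with APTK and 23.4, 41, 28.6 and 68.9 CPM with irradiated APTK medium, where its library IV was the highest, while both APTKA groups stayed between 4.22 and 6.49 CPM. Chac1 lay at 32.6, 29.2, 28.4 and 32.3 CPM and, irradiated, at 9.12, 21.3, 10.3 and 13.7 CPM in the APTK groups, against 1.24 to 1.83 CPM in the APTKA groups. Their differences were 1.07 ± 0.433 SE (adjusted p = 0.458) and 1.19 ± 0.359 SE (adjusted p = 0.231). The chaperone gene Hspa5, a marker of endoplasmic reticulum stress, averaged 588 ± 32.2 and 675 ± 10.7 CPM in the APTKA groups, and its difference was 0.25 ± 0.0701 SE (adjusted p = 0.168).

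Sterol and glycolysis genes also leaned to positive differences, with 1 call each. Sqle (ENSMUSG00000022351, chromosome 15, 59315077 to 59331192, plus strand), squalene epoxidase of cholesterol synthesis, fell in APTK medium from 70.1, 79.5, 71.8 and 70.8 CPM to 65.2, 59, 55.3 and 60.3 CPM (-0.29 ± 0.0637 SE, adjusted p = 0.0212). With APTKA medium Sqle lay at 29.2, 31.3, 30.2 and 32.1 CPM and, irradiated, at 34.9, 32.4, 37.3 and 34.1 CPM, all higher but not called (0.18 ± 0.0665 SE, adjusted p = 0.245). Both pairs of groups separated, and the difference was 0.46 ± 0.0921 SE (adjusted p = 0.0249). Of the 25 tested genes of cholesterol synthesis and uptake 24 had a positive difference, against 7366 of all 14820 genes. An unadjusted p below 0.05 was reached by 11 of the 24 (4.72% of all genes in that direction), and the median was 0.225. Irradiation in APTK medium called 6 of the 25, all lower (0.837% of all genes), and irradiation in APTKA medium none. Hmgcs1, an early enzyme of the pathway, averaged 171 ± 20.2 CPM with APTK and 145 ± 6.48 CPM with irradiated APTK medium, and its difference did not pass (0.38 ± 0.0977 SE, adjusted p = 0.121).

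Pfkp (ENSMUSG00000021196, chromosome 13, 6579768 to 6648777, minus strand), a phosphofructokinase isoform of glycolysis, lay at 139, 149.9, 133 and 141 CPM with APTK and 128, 121, 119 and 123 CPM with irradiated APTK medium. In the APTKA groups it lay at 79, 78.2, 76.5 and 78.2 CPM and, irradiated, at 86.7, 81.2, 86 and 91.6 CPM. Both pairs separated, in opposite directions, the fall in APTK medium was -0.20 ± 0.047 SE (adjusted p = 0.0325) and the difference 0.34 ± 0.0668 SE (adjusted p = 0.0227). Pfkp overlaps Pitrm1 on the opposite strand. It was the only called gene of 29 glycolysis and hypoxia genes, of which 24 had positive differences (7366 of all 14820 genes). An unadjusted p below 0.05 in that direction was reached by 14 (4.72% of all genes). The median was 0.258, or 0.144 without irradiated APTK II and IV. Just outside the threshold with all libraries were Pdk1, which diverts pyruvate from mitochondria, at 0.35 ± 0.0802 SE (adjusted p = 0.0748), and the glucose transporter gene Slc2a1, at 0.42 ± 0.0978 SE (adjusted p = 0.081). Without irradiated APTK IV both were called, at 0.29 (adjusted p = 0.028) and 0.38 (adjusted p = 0.0348). Positive calls in that fit numbered 5 among the 29 glycolysis and hypoxia genes (Ndrg1, Pfkp, Pdk1, Slc2a1, Vegfa). Among the 25 sterol genes there were 3 (Sqle, Acat2, Msmo1), against 1.22% of all genes.

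**Figure D3:**
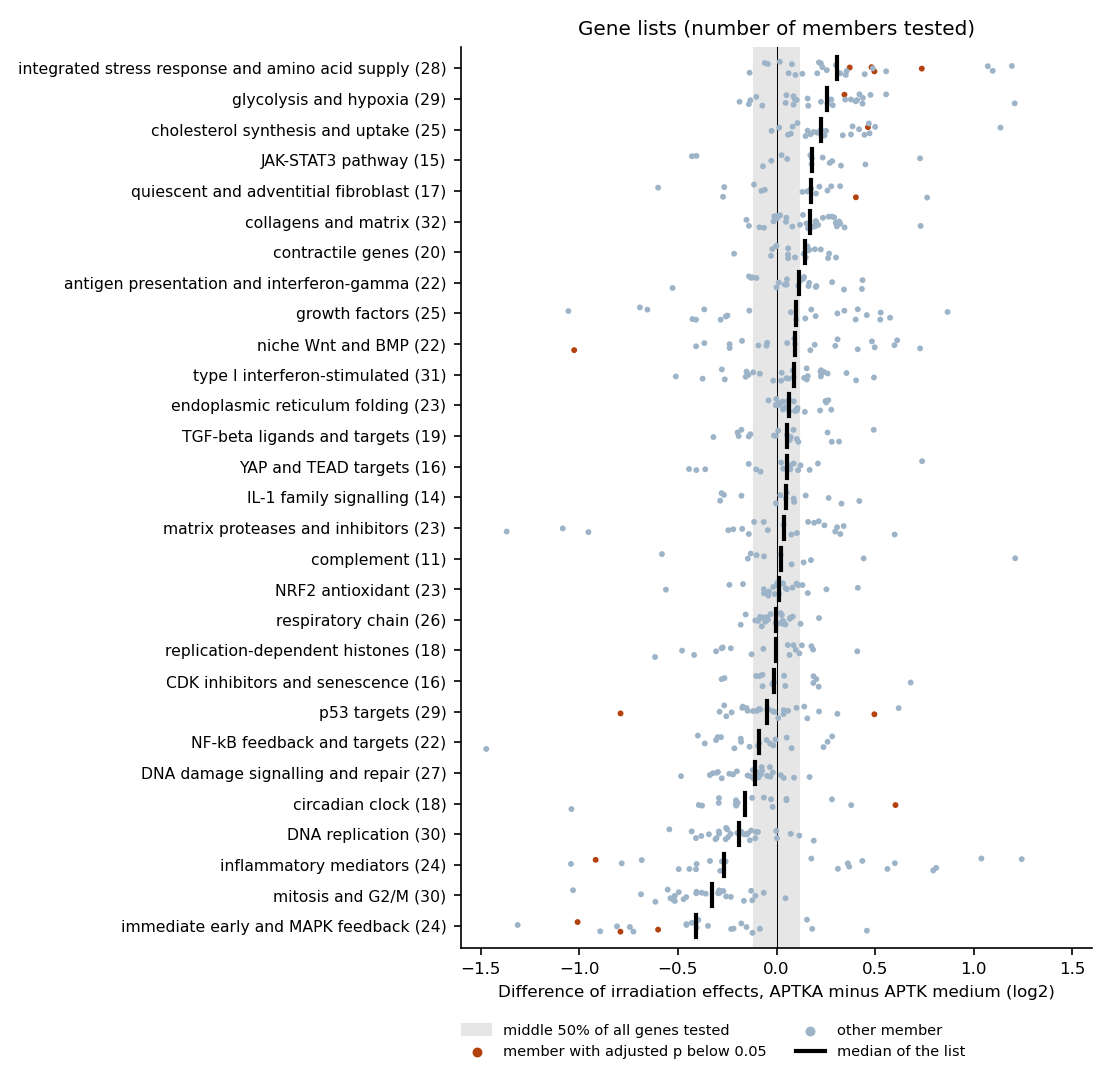
Difference of irradiation effects (x axis, log2, APTKA minus APTK medium) of the tested members of 29 gene lists (y axis, number tested in brackets), with called members in red and list medians as black bars, the middle 50% of all genes as a grey band, and 6 members outside the plotted range. Amino acid supply and stress, glycolysis and sterol lists have the highest medians (0.308, 0.258 and 0.225), and MAPK feedback and mitosis lists the lowest (-0.408 and -0.327).

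Fibroblast genes differed in a few single cases. Pdgfrb, the receptor for platelet-derived growth factor B on mesenchymal cells, lay at 362, 361, 396 and 338 CPM with APTKA and 449, 441, 446 and 436 CPM with irradiated APTKA medium, without overlap. In the APTK groups it lay at 837, 891, 799.9 and 923 CPM and, irradiated, at 835, 712, 787 and 774 CPM, with overlap. Pdgfrb rose in APTKA medium (0.28 ± 0.0559 SE, adjusted p = 0.00999), and its difference was 0.43 ± 0.0789 SE (adjusted p = 0.0177). It was the only called gene among 12 fibroblast markers, whose summed level was 32900 to 37200 CPM with APTKA, 32500 to 42200 with irradiated APTKA, 50400 to 55400 with APTK and 44900 to 52600 with irradiated APTK medium.

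Smoc2 (ENSMUSG00000023886, chromosome 17, 14279506 to 14404790, plus strand), a secreted calcium-binding matrix protein, rose in APTKA medium from 44, 43.4, 42.3 and 37 to 52.6, 58.1, 52.4 and 50.1 CPM (0.36 ± 0.0567 SE, adjusted p = 0.00151). In the APTK groups it lay higher, at 236, 235, 236 and 244 CPM and, irradiated, at 225, 216, 242 and 236 CPM, with overlap, and the difference was 0.40 ± 0.0783 SE (adjusted p = 0.0227). Aldh1a3 (ENSMUSG00000015134, chromosome 7, 66390890 to 66427517, minus strand), which makes retinoic acid, had the largest rise with irradiation in APTKA medium under the naming rule. It lay at 87.6, 61.6, 67.8 and 62.3 CPM with plain and 132, 109, 138 and 135 CPM with irradiated APTKA medium, against 28.5, 35.3, 27 and 31.7 CPM and, irradiated, at 34.9, 32.3, 30.4 and 26.9 CPM in the APTK groups. All irradiated APTKA libraries exceeded all plain ones, and the APTK groups overlapped. The rise was 0.88 ± 0.109 SE (adjusted p = 3.81e-04) and the difference 0.86 ± 0.162 SE (adjusted p = 0.0273).

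Lrrc17, a secreted leucine-rich repeat protein gene, was called only in the difference (0.81 ± 0.168 SE, adjusted p = 0.0497). Its libraries overlapped in both media, at 17.2, 12.7, 14.5 and 13.3 and, irradiated, 21.1, 21.3, 17.6 and 14.9 CPM for APTKA and at 31.3, 26.7, 29.5 and 29.6 CPM and, irradiated, at 18.1, 19.3, 21.4 and 27.5 CPM for APTK. It overlaps Fbxl13 on the opposite strand. Pdzrn3, a ubiquitin ligase gene, averaged 274 ± 10.9 CPM with APTKA and 317 ± 15.7 CPM with irradiated APTKA medium, with a difference of 0.34 ± 0.0718 SE (adjusted p = 0.0463). Collagen and matrix genes had no call with edgeR or DESeq2 among 32 tested, 7 had an unadjusted p below 0.05, all positive, and the median was 0.168. Without irradiated APTKA II that median was 0.102, and without irradiated APTK IV the lysyl oxidase gene Lox was called (0.45, adjusted p = 0.00337). Without a filter on low counts 5 of the list were called, all positive, against 158 positive calls among all 31290 genes. Col1a1 averaged 7108 ± 329 and 8304 ± 861 CPM in the APTKA groups, 11056 ± 1384 and 10544 ± 1926 CPM in the APTK groups, and its difference was 0.29 ± 0.175 SE (adjusted p = 0.677). Acta2, the smooth muscle actin of myofibroblasts, had a difference of 0.16 ± 0.105 SE (adjusted p = 0.715).

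Regulators and surface proteins made up most of the remaining calls. Id1 (ENSMUSG00000042745, chromosome 2, 152736251 to 152737410, plus strand), an inhibitor of helix-loop-helix factors and a direct target of BMP signalling, lay at 5.76, 5.47, 5.38 and 5.52 CPM with APTK and 11.9, 8.72, 11.5 and 8.43 CPM with irradiated APTK medium, without overlap. With APTKA medium Id1 lay at 6.12, 5.54, 5.74 and 5.37 CPM and, irradiated, at 4.32, 5.11, 5.9 and 5.23 CPM, with overlap. Plain libraries of the 2 media overlapped as well, so that irradiated APTK medium was the group that stood apart. The rise was 0.88 ± 0.142 SE (adjusted p = 0.0025) and the difference -1.03 ± 0.205 SE (adjusted p = 0.025). Its relatives Id2 and Id3 did not pass, at -0.05 ± 0.20 SE (adjusted p = 0.968) and -0.17 ± 0.20 SE (adjusted p = 0.865), and Id1 was the only call among 22 tested Wnt and BMP niche genes (median 0.0917, or -0.0484 with a filter of 5 CPM).

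Sox11 (ENSMUSG00000063632, chromosome 12, 27334264 to 27342574, minus strand), a transcription factor gene of mesenchymal and neural progenitors, lay at 61.5, 65.6, 67.8 and 67.2 CPM with APTKA and 75.7, 68.1, 75.1 and 75.5 CPM with irradiated APTKA medium, and at 52, 57.4, 52.9 and 59.8 CPM and, irradiated, at 49.9, 39.8, 39.6 and 43.2 CPM in the APTK groups. Both pairs separated, upwards in APTKA and downwards in APTK medium. Only the fall was called (-0.37 ± 0.065 SE, adjusted p = 0.00631), and the difference was 0.53 ± 0.0904 SE (adjusted p = 0.0104). Nfil3 (ENSMUSG00000056749, chromosome 13, 52967209 to 52981073, minus strand), a leucine zipper repressor of the circadian and immune systems, fell in APTK medium from 16.8, 17.4, 17.8 and 17.6 to 13.5, 12.2, 10.9 and 15.6 CPM (-0.42 ± 0.0955 SE, adjusted p = 0.0269). In the APTKA groups Nfil3 lay at 29.7, 26.7, 26.1 and 24.4 CPM and, irradiated, at 32.2, 31.8, 31.3 and 26.3 CPM, with overlap. Its difference of 0.60 ± 0.129 SE (adjusted p = 0.0463) was lost in most fits that left out 1 library, as counted at the end.

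Tnfrsf21 (ENSMUSG00000023915, chromosome 17, 43016555 to 43089189, plus strand), death receptor 6, went from 3.84, 3.67, 4.17 and 3.27 CPM with APTK to 6.16, 6.19, 6.42 and 5.5 CPM with irradiated APTK medium, without overlap. The APTKA groups overlapped at 8.68, 9.88, 10.8 and 8.43 CPM and, irradiated, at 8.36, 8.85, 8.88 and 9.42 CPM. The rise was 0.69 ± 0.108 SE (adjusted p = 0.00158) and the difference -0.78 ± 0.142 SE (adjusted p = 0.0177). Bcl2 (ENSMUSG00000057329, chromosome 1, 106538178 to 106714274, minus strand), which protects mitochondria from the death pathway, fell in APTKA medium from 22.6, 22.5, 21.7 and 22.8 to 16.6, 16.8, 16.6 and 18.6 CPM (-0.39 ± 0.0921 SE, adjusted p = 0.0417). With APTK medium Bcl2 lay at 21.9, 22.9, 21.6 and 21.8 CPM and irradiated at 26.5, 31.6, 29.2 and 19.6 CPM, where I to III lay above and IV below the plain libraries. The difference was -0.66 ± 0.13 SE (adjusted p = 0.0249), or -0.78 without irradiated APTK IV. Bcl2 shares sequence with D630008O14Rik on the opposite strand. Ikbkg, which encodes the NEMO subunit of the IkB kinase, averaged 84 ± 2.96 and 98.8 ± 1.78 CPM in the APTKA groups and 108 ± 3.64 and 100.2 ± 3.68 CPM in the APTK groups, with a difference of 0.34 ± 0.0648 SE (adjusted p = 0.0219). It overlaps G6pdx on the opposite strand.

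The AP-1 motif, the site of FOS and JUN dimers, was searched in a loose form, TGANTCA with any base at N. On either strand it was found in the 250 bases before the start of 5 called genes (Adra1b, Gja1, Gpr35, Ikbkg, Lif). Promoters of 22 called genes were in the RefSeq table (29 promoters, GRCm38.p6). An Ikbkg promoter was counted through TGATTCA, and the other matches read TGAGTCA or TGACTCA. The loose motif occurred in 7 of these 29 promoters, 3 of them of Ikbkg alone, and in 6.75% of all 32851. The promoters of Lif, Gja1 and Adra1b are shown because members of the AP-1 family are in the list with the lowest median. They are written 5′ to 3′ on the strand of the gene, in lower case, with the motif in capitals.
Lif, chr11:4257318-4257567, plus strand: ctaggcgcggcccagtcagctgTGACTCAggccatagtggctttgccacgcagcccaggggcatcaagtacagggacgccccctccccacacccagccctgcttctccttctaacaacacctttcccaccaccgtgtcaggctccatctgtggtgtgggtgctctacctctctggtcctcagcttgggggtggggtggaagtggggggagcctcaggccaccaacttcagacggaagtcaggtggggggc
Gja1, chr10:56377050-56377299, plus strand: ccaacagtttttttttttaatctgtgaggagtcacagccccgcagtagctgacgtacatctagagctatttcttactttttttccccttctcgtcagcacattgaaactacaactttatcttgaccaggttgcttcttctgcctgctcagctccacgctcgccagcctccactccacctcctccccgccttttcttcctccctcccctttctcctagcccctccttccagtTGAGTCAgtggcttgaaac
Adra1b, chr11:43901238-43901487, minus strand: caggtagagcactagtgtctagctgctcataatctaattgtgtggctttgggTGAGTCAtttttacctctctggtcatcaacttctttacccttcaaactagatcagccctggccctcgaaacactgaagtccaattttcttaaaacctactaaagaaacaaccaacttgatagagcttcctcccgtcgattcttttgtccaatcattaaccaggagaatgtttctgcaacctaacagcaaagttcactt
The motif begins 228 bases before the start in Lif, 19 in Gja1 and 198 in Adra1b. The ATF4 motif TGATGNAAT, a looser form of the NF-kB motif with free inner bases and the interferon response element were in none of the 29, and in 0.816, 1.41 and 2.98% of all promoters. The CCAAT box was in 14 of the 29 and in 33.8% of all.

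Lif (ENSMUSG00000034394, chromosome 11, 4257557 to 4272514, plus strand), an interleukin-6 family cytokine, lay at 24.7, 19.1, 19.4 and 18.9 CPM with APTKA and 13.7, 17.7, 18 and 13.5 CPM with irradiated APTKA medium. With APTK medium it was lower, at 3.88, 4.4, 4.28 and 4.41 CPM, and irradiated at 6.1, 4.99, 7.26 and 5.93 CPM. Both pairs of groups separated, downwards in APTKA and upwards in APTK medium, although neither effect was called (-0.39 ± 0.116 SE, adjusted p = 0.122, and 0.53 ± 0.147 SE, adjusted p = 0.0664). The difference was -0.92 ± 0.187 SE (adjusted p = 0.0303). Gja1 (ENSMUSG00000050953, chromosome 10, 56377330 to 56402513, plus strand), the gap junction protein connexin 43, lay at 9.99, 10.3, 10.5 and 10.1 CPM with APTK and 15.1, 17.4, 16.9 and 10.8 CPM with irradiated APTK medium, library IV being just above the plain range. In the APTKA groups it lay at 28.4, 27.4, 24.6 and 26.3 CPM and, irradiated, at 22.7, 24.6, 21.9 and 19.7 CPM, with overlap. Gja1 rose in APTK medium (0.55 ± 0.107 SE, adjusted p = 0.012), and the difference was -0.81 ± 0.143 SE (adjusted p = 0.0154). Adra1b (ENSMUSG00000050541, chromosome 11, 43774606 to 43901210, minus strand), an alpha-1 adrenergic receptor gene, fell in APTK medium from 6.72, 7.92, 6.14 and 7.34 to 4.45, 3.56, 4.31 and 5.5 CPM, without overlap. It lay at 3.53, 3.22, 4.13 and 3.88 CPM and, irradiated, at 5.04, 3.65, 5.0 and 4.66 CPM in the APTKA groups, and the difference was 0.96 ± 0.184 SE (adjusted p = 0.0227). Of the 5 genes with the AP-1 motif, Lif and Gja1 thus had a negative difference, and Adra1b, Gpr35 and Ikbkg a positive one.

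The 2 largest positive differences were measured at low levels. Ccdc78, a coiled-coil gene of multiciliated cells, had 1.81 ± 0.368 SE (adjusted p = 0.0289) at mean levels of 0.558 ± 0.12, 0.905 ± 0.0384, 1.15 ± 0.373 and 0.52 ± 0.146 CPM with APTKA, irradiated APTKA, APTK and irradiated APTK medium. Gpr35, a G protein-coupled receptor gene, had 1.57 ± 0.341 SE (adjusted p = 0.0497) at 0.807 ± 0.145, 1.08 ± 0.0473, 1.43 ± 0.299 and 0.641 ± 0.0911 CPM in the same order. Ccdc78 also overlaps other genes on the opposite strand, Fam173a among them. Both were under the level set for naming genes. They are named here with 5930403N24Rik (0.70 ± 0.152 SE, adjusted p = 0.0497) so that all 27 are accounted for, as are Ikbkg, Slc38a2 and Pdzrn3, which the rule did not reach.

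Inflammatory mediators did not share a direction. Of 24 tested 1 was called (Lif), 11 had positive and 13 negative differences, and the median was -0.268. Without adjustment, 8 had a p below 0.05 in the negative direction and 3 in the positive, against 4.3 and 4.72% of all genes. The neutrophil attractant gene Cxcl5 lay at 12.8, 14.7, 15.4 and 11.9 CPM with APTK and 7.2, 6.08, 6.94 and 9.29 CPM with irradiated APTK medium, a called fall (-0.88 ± 0.148 SE, adjusted p = 0.00769). In the APTKA groups Cxcl5 lay at 102, 145, 146 and 115 CPM and, irradiated, at 124, 136, 121 and 102 CPM, with overlap, and its difference did not pass (0.81 ± 0.184 SE, adjusted p = 0.0943). Ccl2, which attracts monocytes, lay at 339.9, 370.4, 423 and 334 CPM and, irradiated, at 278, 336, 314 and 255 CPM in the APTKA groups and at 40.4, 43.1, 48.9 and 40.6 CPM and, irradiated, at 63.4, 73.7, 68 and 36 CPM in the APTK groups, where I to III of the irradiated libraries lay above and IV below the plain ones. Its difference was -0.79 ± 0.242 SE (adjusted p = 0.27). Cxcl1 (0.31 ± 0.157 SE, adjusted p = 0.582), Il6 (-0.34 ± 0.327 SE, adjusted p = 0.824) and the interleukin-33 receptor gene Il1rl1 (0.02 ± 0.176 SE, adjusted p = 0.989) did not pass either. Saa3, an acute-phase gene, was near 0 in the APTK groups (at most 0.476 CPM) and its difference had a SE of 2.77. The stromelysin gene Mmp3 had a difference of -1.08 ± 0.728 SE (adjusted p = 0.724), with at most 1.23 CPM in the APTK groups.

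Proliferation genes leaned to negative differences without a single call in the edgeR test. Of 30 mitosis genes 29 had a negative difference, against 7454 of all 14820 genes. An unadjusted p below 0.05 was reached by 17 of the 29 (against 4.3% of all genes in that direction), and DESeq2 called 1. The median was -0.327, with a median effect of -0.251 in APTKA and 0.0686 in APTK medium. Hmmr, a spindle protein gene, lay at 6.49, 6.55, 6.05 and 6.35 CPM and, irradiated, at 4.86, 4.33, 4.54 and 5.23 CPM in the APTKA groups and at 5.8, 5.89, 5.96 and 5.09 CPM and, irradiated, at 7.2, 8.54, 6.77 and 5.08 CPM in the APTK groups, with a difference of -0.69 ± 0.179 SE (adjusted p = 0.123). The APTKA groups of Hmmr did not overlap, while the APTK groups did. Mki67 averaged 12.8 ± 2.46 CPM with APTKA and 9.52 ± 1.11 with irradiated APTKA medium, and its difference was -0.41 ± 0.203 SE (adjusted p = 0.575). DNA replication genes had a median of -0.189 over 30 (-0.274 without irradiated APTK IV, -0.12 without I and II). Of the 30, 26 were negative (7454 of all 14820 genes), none was called, 5 had an unadjusted p below 0.05 and DESeq2 called 1. Mcm2, a subunit of the replicative helicase, fell with irradiation in APTKA medium (-0.50 ± 0.0715 SE, adjusted p = 3.81e-04), and its difference was -0.41 ± 0.104 SE (adjusted p = 0.108), or -0.48 without irradiated APTK IV (adjusted p = 0.0059). The DNA polymerase gene Pola1 was also called without irradiated APTK IV (-0.69, adjusted p = 0.0023).

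Nqo1, a target of the antioxidant factor NRF2, rose in APTKA medium from 30.7, 26.3, 29 and 26.6 to 48, 43.4, 48 and 52 CPM and in APTK medium from 51, 43.2, 40.7 and 44.8 to 78.5, 86.1, 79 and 64.1 CPM. Neither pair of groups overlapped. The rises were 0.77 ± 0.0895 SE (adjusted p = 6.26e-05) and 0.77 ± 0.0871 SE (adjusted p = 4.42e-05), and the difference was -0.01 ± 0.125 SE (adjusted p = 0.993). Interferon-stimulated genes had a median effect of -0.573 in APTKA and -0.818 in APTK medium, with 1 of 31 called lower in the first (0.277% of all genes) and 7 in the second (0.837%). No difference was called among the 31 with edgeR or DESeq2 (1 at an unadjusted p below 0.05). The median difference of 0.0873 did not hold a sign, going from -0.00651 without APTK III to 0.429 without irradiated APTK II and IV. Ifit1, which binds foreign RNA, averaged 13.3 ± 7.67 and 6.04 ± 2.49 CPM in the APTKA groups and 106 ± 32.8 and 54 ± 19.8 CPM in the APTK groups, with a difference of -0.16 ± 0.574 SE (adjusted p = 0.962), and irradiation called it in neither medium. Ifi44, of the same response, had a difference of 0.03 (adjusted p = 0.993) and was called lower in APTK medium alone. At the standard error of Ifit1 a sizeable difference would not have been detectable.

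Of the genes with the largest irradiation effects in APTKA medium, Gdf6, a BMP family ligand gene, fell from 32.6, 42.6, 37.6 and 36.8 to 20.2, 25.1, 21.1 and 22.4 CPM (-0.75 ± 0.103 SE, adjusted p = 3.81e-04). In the APTK groups Gdf6 averaged 22.8 ± 2.29 and 21.6 ± 3.79 CPM, and its difference missed the threshold with all libraries (-0.67 ± 0.149 SE, adjusted p = 0.0677) and passed it without irradiated APTK IV (-0.78, adjusted p = 9.26e-04). Gsta4, a glutathione transferase gene, rose in APTKA medium (0.68 ± 0.101 SE, adjusted p = 6.29e-04), with a difference of 0.41 ± 0.142 SE (adjusted p = 0.298). Aurkb, a mitotic kinase gene, fell there (-0.71 ± 0.167 SE, adjusted p = 0.039), with a difference of -0.55 ± 0.229 SE (adjusted p = 0.44).

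The number of called genes depended on single libraries. Leaving out 1 of the 16 at a time gave between 4 and 307 calls. Without plain APTKA libraries I, II, III or IV there were 30, 4, 10 and 6 calls, and without plain APTK I to IV 23, 7, 21 and 7. Without irradiated APTKA I to IV there were 5, 16, 11 and 24, and without irradiated APTK I to IV 22, 43, 10 and 307. Plk3, Sesn2, Sox11 and Spry2 were called in all 16 of these fits and in the 9 other alternatives. Gja1 was lost only without APTKA II, where its adjusted p was 0.0524. The others were called in fewer of the 16 fits: Spry1, Pdgfrb and Tnfrsf21 in 11, Ikbkg in 10, Adra1b and Slc1a4 in 9, Dusp6, Slc7a11 and Smoc2 in 8, and Pfkp and Sqle in 7. Bcl2, Pdzrn3, Slc38a2 and Aldh1a3 were called in 6, Id1 in 5, Lif in 4, Ccdc78, Lrrc17 and Nfil3 in 3, and Gpr35 and 5930403N24Rik in 2. None of the 27 changed direction in any alternative, and DESeq2 called 100 genes, among them all 27.

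**Figure D4:**
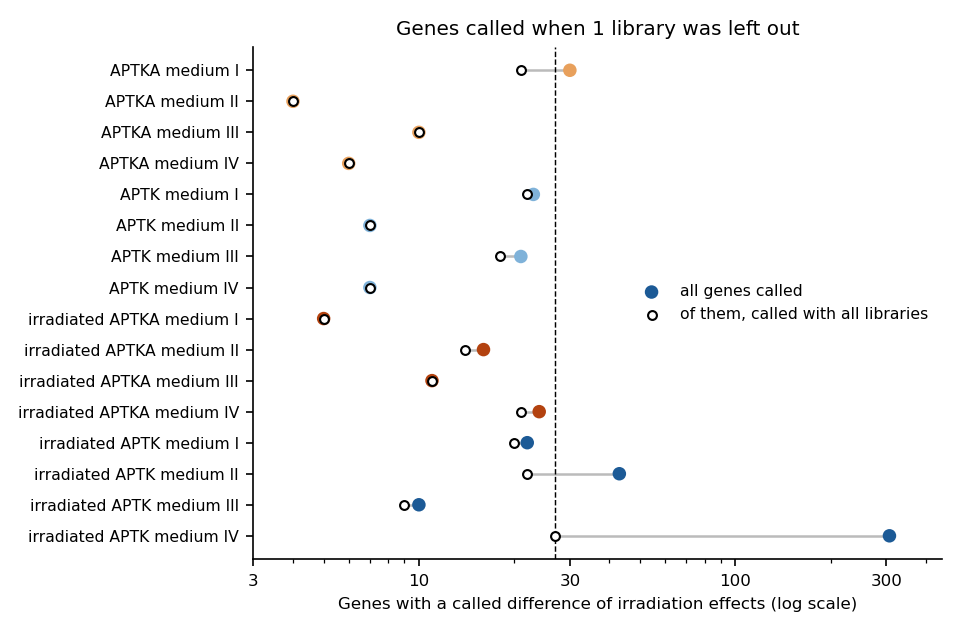
Number of genes called for a difference of irradiation effects (x axis, log scale) when the library named on the y axis was left out (filled points) and how many of them were among the 27 called with all libraries (open points), with 27 as the dashed line. Leaving out irradiated APTK IV gave 307 calls including all 27, and 11 of the 16 fits kept 20 or fewer of them.

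Without irradiated APTK IV, 307 of 15037 genes were called (2.04%), 183 positive (1.22%) and 124 negative (0.825%). The irradiation effect in APTK medium then had 1271 calls (8.45%) in place of 205, and that in APTKA medium 190 (1.26%) in place of 108. The APTKA contrast holds no irradiated APTK library, and IV enters its test only through the shared spread, scaling and filter. Spp1 (osteopontin, a secreted matrix phosphoprotein) had lain at 60.6, 64, 67 and 10.6 CPM with irradiated APTK I to IV, against 14.3, 12.1, 14.7 and 10.9 CPM with plain APTK medium and 152, 122, 120.5 and 130.3 CPM and, irradiated, at 147, 146, 159 and 134 CPM in the APTKA groups. Its difference was -1.78 ± 0.491 SE (adjusted p = 0.197) with all libraries and -2.13 ± 0.115 SE without IV (adjusted p = 6.97e-12). Spp1 overlaps Gm42793 on the same strand. Mmp10, stromelysin 2, lay at 6.93, 8.37, 6.91 and 0.859 CPM with irradiated and 1.07, 1.72, 1.28 and 1.06 CPM with plain APTK medium, and its difference went from -2.27 ± 0.564 SE (adjusted p = 0.15) to -2.66 ± 0.245 SE (adjusted p = 7.72e-07). Gfra1, a receptor for glial-derived neurotrophic factor, lay at 17.9, 19.7, 18.3 and 6.83 CPM with irradiated and 6.64, 8.22, 6.69 and 7.26 CPM with plain APTK medium, and its difference went from -1.27 ± 0.32 SE (adjusted p = 0.138) to -1.53 ± 0.135 SE (adjusted p = 9.31e-08). In all 3 genes irradiated APTK IV lay within or below the plain APTK range, and I to III above it. The 3 genes are shown because IV departed from I to III, so leaving IV out lowers their SE by that choice. Their p-values without IV are therefore no support for a difference. Other calls given without IV also follow a library singled out after the values were seen, and are a description.

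Over all genes, irradiated APTK IV lay within the range of the plain APTK libraries for 7696 of 14820 (51.9%). This was the highest share of its group, against 44, 29.9 and 44.4% for I, II and III. Irradiated APTKA libraries lay within the range of the plain APTKA ones for 53.3 to 60%. Among the 27 called genes, IV lay within the plain range for 5, and I, II and III for 4, 2 and 3. The 27 were called with IV in the fit, which disfavours genes where IV departs from I to III. These counts therefore cannot show how far IV resembled the plain libraries. Without IV, 1.22% of all genes were called positive and 0.825% negative, far more than with it, and the list counts that follow stand against these shares. In that fit amino acid supply and stress genes had 10 positive calls of 28 and no negative one, among them Trib3 (1.47 ± 0.29 SE), Ddit3 and Atf5. MAPK feedback genes had 6 negative calls and 1 positive of 24 (median -0.278), with Etv4, Fosl1 and Dusp4 negative and Fosl2 positive. Mitosis genes had 5 negative calls of 30 (Cdc25c, Hmmr, Kif20a, Ccna2, Kif11), and inflammatory mediators 6 negative (Spp1, Ccl2, Ccl7, Ccl11, Csf1, Lif) and 2 positive calls (Cxcl1, Cxcl5) of 26, with a median of -0.0591 in place of -0.268. With irradiated APTK II left out as well, 358 genes were called, 247 positive and 111 negative, 26 of the 27 among them. Aldh1a3 was the exception, at 0.81 (adjusted p = 0.0543).

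**Figure D5:**
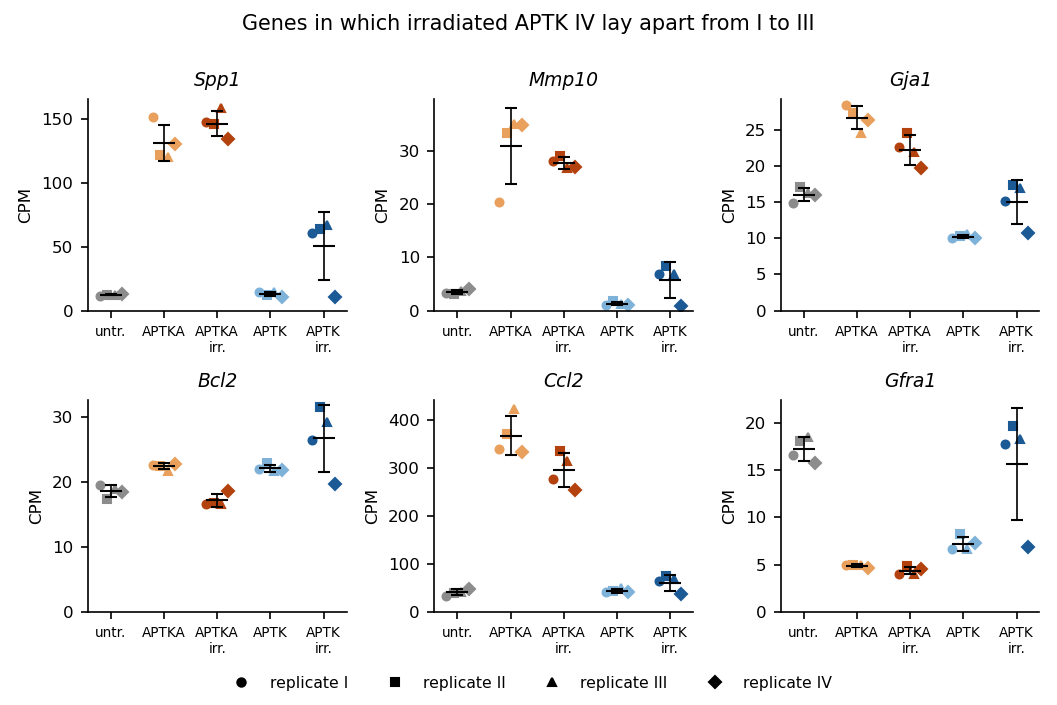
CPM of 6 genes in each library of the 5 groups (symbols mark replicates I to IV, bars are mean ± SD, n = 4, y axes start at 0), chosen after their values were seen. In irradiated APTK medium replicate IV (diamond) lies near the plain APTK libraries, as for Spp1 at 10.6 CPM, while I to III lie at 60.6 to 67 CPM.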

How the data were processed

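Per the labels' protocols, polyadenylated RNA of cultured colon fibroblasts was sequenced after 24 h in organoid-conditioned medium. Reads were processed with bcl2fastq 2.20.0.422, STAR 2.5.2a and featureCounts 1.5.0-p1 on mm10, per the submitters' processing notes. Annotation release, strandedness and treatment of multi-mapping reads were not given in the sources used here. The deposited files held whole-number read counts per Ensembl gene, not normalised, for 47729 genes, of which 47224 were matched to a symbol.

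Counts of all 20 libraries were fitted with edgeR 4.0.16 under R 4.3.3 and tested by its quasi-likelihood method (robust, TMM scaling, default expression filter by group, 5 group means, 15 residual degrees of freedom). P-values were adjusted over 14820 genes by the Benjamini-Hochberg procedure, and a gene is called at an adjusted p below 0.05. The standard error (SE) was derived from the log2 value and its F statistic, as their ratio after taking the root of F. CPM used TMM-scaled totals. The script was tested on simulated data. Coordinates are those of GENCODE M21 for GRCm38 (mm10), counted from 1. Promoters came from RefSeq.

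Named genes were the 10 largest positive and 10 largest negative called differences with a mean log2 CPM of at least 2, without predicted genes, up to 3 called members of each of 29 gene lists, 16 fixed genes, and the 3 largest rises and falls of each irradiation effect. The members, lists and rules were chosen with earlier results of these data known. Alternatives were the 16 libraries alone, a replicate block, DESeq2 1.42.0, other scalings and filters, and leaving out libraries. Leaving out irradiated APTK II with IV was added after the data were seen. No 2 libraries of a group agreed within counting noise, so each was counted once. Library totals of 17.3 to 31.6 M counts set the counting precision.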

Additional observations from a re-analysis of the deposited data

Results flagged for a closer look

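The 27 called genes are themselves cases in which the same irradiation contrast differed between the 2 media by a test of the difference. The negative differences were -1.03 for Id1, -1.01 for Dusp6, -0.92 for Lif, -0.81 for Gja1, -0.79 for Spry2, -0.79 for Plk3, -0.78 for Tnfrsf21, -0.66 for Bcl2 and -0.60 for Spry1. The smaller positive differences were 0.34 for Pdzrn3, 0.34 for Pfkp, 0.34 for Ikbkg, 0.37 for Slc38a2, 0.40 for Smoc2, 0.43 for Pdgfrb, 0.46 for Sqle, 0.48 for Slc1a4 and 0.50 for Sesn2. The larger ones were 0.53 for Sox11, 0.60 for Nfil3, 0.70 for 5930403N24Rik, 0.74 for Slc7a11, 0.81 for Lrrc17, 0.86 for Aldh1a3, 0.96 for Adra1b, 1.57 for Gpr35 and 1.81 for Ccdc78.

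Single libraries stood apart from the other 3 of their group in 11 of 228 groups of values examined (4.82%), where chance flags about 1 in 20. They covered all 52 named genes and 5 library measures in 4 groups. Irradiated APTK IV accounted for 2 of them, with Spp1 at 10.6 CPM against 60.6 to 67 in the others and Gfra1 at 6.83 CPM against 17.9 to 19.7. Dusp6 was at 62.5 CPM in irradiated APTK II, against 36.5 to 39.9 in the others. Lif was at 24.7 CPM in APTKA I, against 18.9 to 19.4. Bcl2 was at 18.6 CPM in irradiated APTKA IV, against 16.6 to 16.8. Smoc2 was at 243.9 CPM in APTK IV, against 234.7 to 235.9. Sox11 was at 68.1 CPM in irradiated APTKA II, below 75.1 to 75.7. Nfil3 was at 26.3 CPM in irradiated APTKA IV, below 31.3 to 32.2. Mdm2 was at 190.8 CPM in APTK III, below 202.6 to 205. Mmp10 was at 20.4 CPM in APTKA I, below 33.4 to 35. Aurkb was at 2.76 CPM in irradiated APTKA IV, against 2.1 to 2.2.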

How the results depend on the processing

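The count of called differences (27) was 19 with the 16 libraries alone, 27 with DESeq2 size factors, 23 with upper quartile scaling and 22 with a filter of 5 CPM. It was 209 without a filter, 100 with DESeq2 and 31 without irradiated APTK I and II. Without irradiated APTK II and IV it was 358. Leaving out 1 library gave 4 to 307. Of the 27, Dusp6, Slc7a11, Slc38a2, Bcl2, Pdzrn3, Aldh1a3, Lrrc17, Nfil3 and 5930403N24Rik were not called with the 16 libraries alone. The irradiation effect in APTKA medium (108) had 66 calls with the 16 libraries alone, 316 without a filter, 259 with DESeq2, 293 without irradiated APTK I and II, 469 without II and IV, and 34 to 294 with 1 library left out. In APTK medium (205) there were 492 without a filter, 404 with DESeq2, 27 without I and II, 1018 without II and IV, and 32 to 1271 with 1 left out. Irradiated APTK libraries are not part of the APTKA contrast. They enter its test only through the shared spread, scaling and expression filter of the fit. The cause of the changes was not tested further.

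The replicate number as a block gave 22 differences (12 positive and 10 negative, 20 of them among the 27), 82 calls in APTKA and 178 in APTK medium. Same-numbered libraries did not deviate together (r of -0.0858 to 0.0959 over 24 pairs), and 3 of 16 libraries correlated best with one of their own number.

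Some uncalled differences, small beside their SE, changed sign. Nqo1 was 0.021 without a filter and 0.10 without irradiated APTK I and II, Ifit1 0.41 and Il1rl1 -0.13 without II and IV. With 1 library left out, they ran from -0.088 to 0.059 for Nqo1, -0.40 to 0.29 for Ifit1, -0.11 to 0.16 for Il1rl1, -0.17 to 0.27 for Ifi44 and -0.76 to 1.2 for Saa3. Depth limits Ccdc78 and Gpr35, which rest on 7 to 46 counts a library.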
